A study of Arabidopsis thaliana with 12 samples.

Results

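The pathogenesis-related genes PR1 to PR5 of Arabidopsis thaliana were followed in seedlings that lack most transcripts of SNAP33, a membrane fusion protein. The 7 loci were chosen by their codes: AT2G14610 (PR1), AT3G57260 (PR2), its relatives AT3G57240 (BG3) and AT3G57270 (BG1), AT3G12500 (PR3), AT3G04720 (PR4) and AT1G75040 (PR5). They are 7 of the 32744 genes in the count files, and were proposed with earlier results of these data known, although the rule that picks them uses only the locus codes.

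Pathogenesis-related proteins are small, mostly secreted proteins that plants accumulate after infection. PR1 belongs to the CAP family, PR2 is a beta-1,3-glucanase, PR3 is a basic chitinase, PR4 is a hevein-like protein that binds chitin, and PR5 is a thaumatin-like protein. In Arabidopsis leaves PR1, PR2 and PR5 are the usual markers of salicylic acid signalling, which acts through the co-activator NPR1 and TGA transcription factors. PR3 and PR4 are the usual markers of ethylene and jasmonate signalling, which acts through ERF factors that bind the GCC box.

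RNA came from untreated whole seedlings grown on solid medium in long days, with 3 libraries in each of 4 groups: wild type and snap33, each named 5 d and 12 d. Per the labels snap33 is a T-DNA insertion knock-out, and the series title names the allele snap33-1. SNAP33, a t-SNARE, takes part in the fusion of vesicles with the plasma membrane and in building the cell plate. Per the labelled dates the 5 d groups were harvested 5 to 7 days after planting and wild type of 12 d 12 to 14 days after planting, but snap33 of 12 d was harvested 32 to 34 days after planting. Every effect of genotype at 12 d, and every effect of age in snap33, therefore cannot be told apart from an effect of that earlier planting. The genotype field of the wild-type libraries also carries the word knock-out, so the SNAP33 counts serve as a check of the labels.

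SNAP33 had 95 to 109 counts in the wild-type libraries and 1 to 8 in snap33 at 5 d, and 108 to 168 against 14 to 16 at 12 d. Gene counts summed to 4304441 to 5754570 per library. In every library the leaf and root markers were detected, and the flower and seed markers summed to at most 5.72 CPM (counts scaled to library size with TMM factors). The 4 leaf markers summed to 9970 to 10800 CPM in wild type and 6790 to 7680 CPM in snap33 at 12 d, and the 4 root markers to 1230 to 1620 CPM and 1130 to 1180 CPM. The part of these differences in the results below was not tested. In such bulk samples fewer cells of a type and less RNA per cell cannot be told apart.

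In the TAIR10.1 annotation PR1 is a gene of 1 exon on the minus strand of chromosome 2 (6241640 to 6242541). PR5 has 2 exons on the plus strand of chromosome 1 (28177670 to 28179022). PR3 (3962136 to 3963984) and PR4 (1285425 to 1286760) have 2 exons each on the minus strand of chromosome 3. The 3 glucanases stand in tandem on the minus strand of chromosome 3, with BG3 at 21181642 to 21183144, PR2 at 21188397 to 21189967 and BG1 at 21191237 to 21193189. The only protein-coding gene between them is AT3G57250, on the plus strand between BG3 and PR2. Over the coding sequence PR2 was 75.1% identical to BG3 and 66.8% identical to BG1, and the longest stretches shared without a mismatch were 23 and 16 bases. The coding sequence of PR1 was 83.5% identical to that of its neighbour PRB1, again with at most 23 bases shared in a row. Only PR3 overlaps another annotated gene: an antisense long non-coding RNA, AT3G12502, covers 1579 of its bases.

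The upstream sequences are shown because the 2 signalling routes named above are known for different binding motifs. Both strands were searched from 1000 bases before to 50 bases after the annotated start for TTGAC (the core of the W box, bound by WRKY factors), TGACG (bound by TGA factors) and GCCGCC (the GCC box). A match on the opposite strand appears as its reverse complement, such as CGTCA for TGACG. For PR2, PR3, PR4 and PR5 the stretch of 300 bases with most matches is printed 5′ to 3′ on the gene's strand, from RefSeq's TAIR10.1 genome, with the motif letters of either strand in capitals. The stretches lie at chr3:21190159-21190458 (PR2, minus), chr3:3964324-3964623 (PR3, minus), chr3:1287192-1287491 (PR4, minus) and chr1:28177259-28177558 (PR5, plus).
PR2: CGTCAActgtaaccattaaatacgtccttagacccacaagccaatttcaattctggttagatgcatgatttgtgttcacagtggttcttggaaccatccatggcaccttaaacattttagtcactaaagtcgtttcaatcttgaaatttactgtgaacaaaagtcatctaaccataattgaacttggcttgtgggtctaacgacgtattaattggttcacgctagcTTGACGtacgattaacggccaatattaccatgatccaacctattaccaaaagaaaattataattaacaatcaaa
PR3: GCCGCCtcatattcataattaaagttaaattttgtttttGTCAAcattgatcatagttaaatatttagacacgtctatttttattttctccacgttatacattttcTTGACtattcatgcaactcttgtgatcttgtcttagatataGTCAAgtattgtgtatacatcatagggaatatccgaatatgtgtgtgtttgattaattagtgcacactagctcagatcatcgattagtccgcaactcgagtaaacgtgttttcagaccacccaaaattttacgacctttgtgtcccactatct
PR4: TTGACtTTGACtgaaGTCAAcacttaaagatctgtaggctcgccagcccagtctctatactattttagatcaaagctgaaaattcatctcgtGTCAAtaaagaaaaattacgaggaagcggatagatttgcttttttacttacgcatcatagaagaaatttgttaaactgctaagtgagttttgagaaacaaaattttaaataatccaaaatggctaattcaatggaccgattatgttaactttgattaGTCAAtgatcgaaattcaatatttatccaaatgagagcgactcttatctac
PR5: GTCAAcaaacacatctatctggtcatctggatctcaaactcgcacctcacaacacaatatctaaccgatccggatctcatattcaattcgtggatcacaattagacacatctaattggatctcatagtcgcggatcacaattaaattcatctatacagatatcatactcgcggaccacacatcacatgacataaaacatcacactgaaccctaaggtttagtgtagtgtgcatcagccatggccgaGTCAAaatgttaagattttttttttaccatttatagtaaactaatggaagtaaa
In the whole searched window TTGAC stood 4 times in PR2, 4 times in PR3, 6 times in PR4 and 3 times in PR5. It is a common motif, present in the same window of 89.3% of 27443 protein-coding genes. TGACG was found at 491 and 264 bases before the PR2 start and at 156 bases before the PR3 start. Both matches in PR2 overlap a TTGAC, so that the letters read TTGACG on 1 of the strands. PR4 and PR5 had no TGACG in this window, and 56.7% of protein-coding genes had it. GCCGCC was found at 639 bases before the PR3 start and at 388 bases before the PR4 start, and in 9.11% of protein-coding genes. PR2 and PR5 had none. BG3 held 3 TTGAC and 2 TGACG, and BG1 held 7 TTGAC and 1 GCCGCC. These matches are letters in the reference sequence, and the libraries hold no measurement of binding.

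At 5 d PR2 and PR4 were higher in snap33 than in wild type, whereas PR1 stayed at 0 to 2 counts a library in both genotypes. At 12 d PR1, PR2, BG3, PR3, PR4 and PR5 were all higher in snap33, by between 1.58-fold (PR3) and 147-fold (PR1). Genes were tested with edgeR's quasi-likelihood test over all genes and called at an adjusted p (Benjamini-Hochberg) under 0.05. Of the 7 members, 6 passed the filter on low counts. BG1 did not, and BG3 passed only through the snap33 libraries of 12 d, so that the counts of called members include a gene that had to differ there. At 5 d 2 of the 6 were called, both higher, where 13.0% of the 18830 genes tested were called, 8.22% higher and 4.77% lower. At 12 d 6 of 6 were called higher, where 41.6% of all genes were called, 21.1% higher and 20.5% lower. Those called at each age were also the members whose snap33 libraries all stood above wild type, as did 16.7% of all genes at 5 d and 25.0% at 12 d. The median log2 fold change of the 6 was 0.46 at 5 d and 4.41 at 12 d, beside -0.003 and -0.037 over all genes tested. The median at 5 d includes BG3, with 0 counts in both genotypes, and PR1, with 3 counts against 1. That at 12 d includes BG3, which had to be higher.

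**Figure D1:**
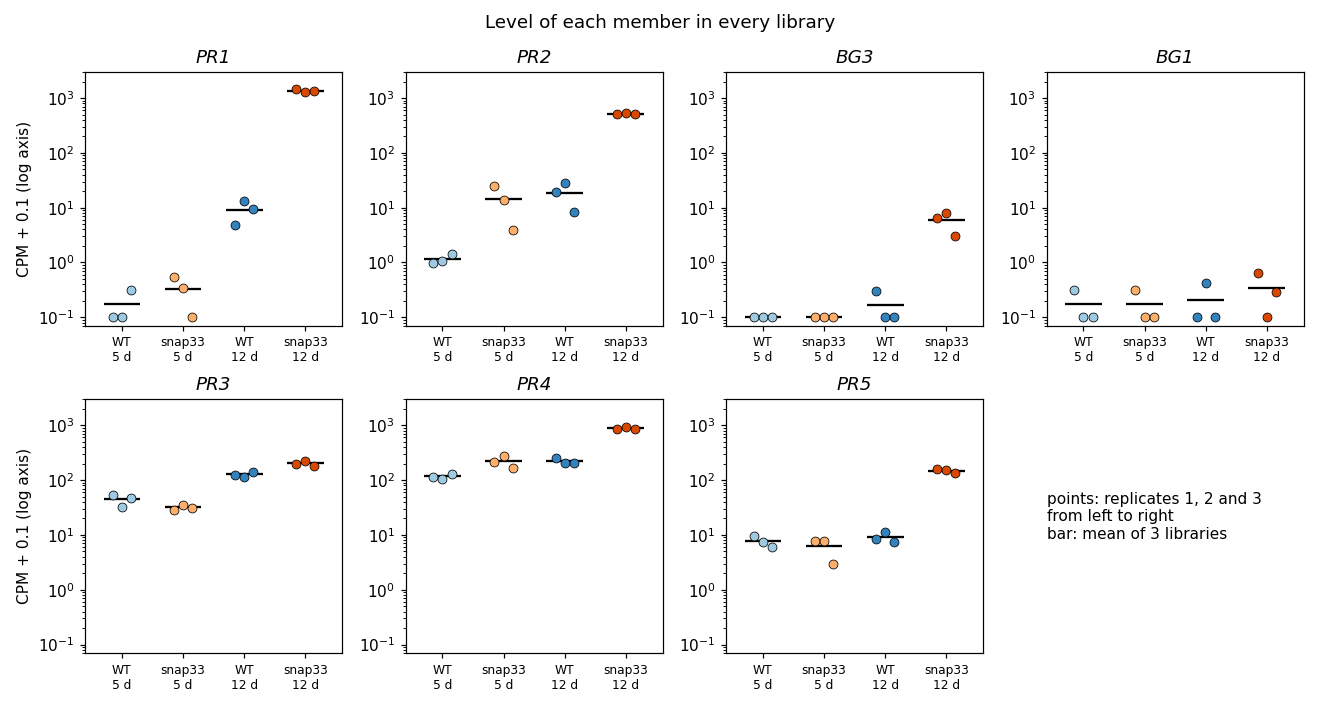
Level of each gene in every library, as CPM plus 0.1 on a log axis, with 1 point a library and a bar at the mean of the 3 libraries of a group. The snap33 libraries of 12 d stand above all others for PR1, PR2, BG3, PR3, PR4 and PR5, while BG1 stays at or below 0.55 CPM throughout.

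PR1, the standard readout of salicylic acid responses in Arabidopsis, was nearly absent at 5 d. The counts of replicates 1 to 3 were 0, 0 and 1 in wild type, against 2, 1 and 0 in snap33. With 3 counts against 1 over the groups, the ratio of snap33 to wild type was 3.27 with an exact 95% interval from 0.262 to 172, and no difference was detectable at this depth (edgeR adjusted p = 0.597). At 12 d the counts were 24, 78 and 48 in wild type, against 8056, 6977 and 6847 in snap33. The 2 genotypes were thus far apart at 12 d, with mean levels of 9.08 ± 4.07 CPM in wild type and 1362.24 ± 107.32 CPM in snap33 (SD, n = 3). This was a rise of 7.20 ± 0.22 on the log2 scale (SE), or 147-fold, with an edgeR adjusted p of 1.3e-14. Of all 18830 genes tested, PR1 ranked 4 by p in that comparison.

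PR1 was also higher at 12 d than at 5 d within each genotype, but it passed the filter on low counts only through the 12 d libraries. Its tests with age therefore had to differ, and ratios and fitted folds are given without their p-values. In wild type it went from 1 count over the group to 150, a ratio of 131 with an exact interval from 23.2 to 5220. Without replicate 3 wild type of 5 d was at 0 counts. In snap33 it went from 3 counts to 21880, a ratio of 5860 with an interval from 2010 to 28400. Without snap33 replicate 1 of 5 d the fitted log2 fold change moved from 12.37 to 13.2. The difference between the effects of snap33 at 12 d and at 5 d was 5.78 ± 2.89 on the log2 scale (SE) and was not called by edgeR (adjusted p = 0.163). Its part at 5 d rests on 3 counts against 1. DESeq2 called it, with 5.63 and an adjusted p of 0.0013. The spread between wild-type libraries of 12 d was wide, with the highest 2.68 times the lowest, against 1.16 times in snap33.

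PR2, a beta-1,3-glucanase that cleaves a polymer of fungal and plant cell walls, separated the genotypes already at 5 d. Its counts were 4, 5 and 6 in wild type, against 112, 57 and 16 in snap33. The genotypes did not overlap, but the snap33 libraries spread widely, from 3.81 to 24.64 CPM, with replicate 3 the lowest. The rise was 3.7 ± 0.65 on the log2 scale (SE), or 13-fold (edgeR adjusted p = 0.000769). Without snap33 replicate 1 the log2 fold change was 3.00 (edgeR adjusted p = 0.00668). Replicate 3 of snap33 at 5 d was also the lowest of its group for PR1, PR4 and PR5.

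At 12 d PR2 had 94, 172 and 42 counts in wild type and 2786, 2900 and 2642 in snap33. Mean levels were 18.58 ± 10.13 CPM and 518.53 ± 10.57 CPM (SD, n = 3), and the SD was 54.5% of the mean in wild type and 2.04% in snap33. The rise was 4.78 ± 0.35 on the log2 scale (SE), or 27.5-fold (edgeR adjusted p = 1.3e-09). The difference from the effect at 5 d was 1.08 ± 0.99 and was not called (edgeR adjusted p = 0.473). With age PR2 rose 17.3-fold in wild type (4.11 ± 0.61, edgeR adjusted p = 2.94e-05) and 36.5-fold in snap33 (5.19 ± 0.37, edgeR adjusted p = 6.22e-10). Without snap33 replicate 1 of 5 d the latter was 5.89 on the log2 scale.

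Of the tandem relatives of PR2, BG3 was counted almost only in snap33 at 12 d and BG1 stayed close to 0 throughout. BG3 had no count in any of the 6 libraries of 5 d, where 3 counts, the upper limit that a count of 0 allows, would be 0.213 CPM over the wild-type group and 0.232 CPM over snap33. At 12 d its counts were 1, 0 and 0 in wild type, against 35, 43 and 15 in snap33, so that all snap33 libraries stood above wild type. The ratio of 93 counts to 1 was 93.1, with an exact interval from 16.3 to 3710. Without replicate 1 wild type was at 0 counts. As BG3 entered the test only through these snap33 libraries, its call is no support for the difference. From 5 d to 12 d BG3 was at least 24.9-fold higher in snap33, taking 3 counts over the 5 d group as the floor. BG1 had 0 to 3 counts in every library, 1 over each group at 5 d and 2 and 4 over wild type and snap33 at 12 d. It did not enter the test, and the ratio at 12 d was 2.0 with an interval from 0.287 to 22.1. Of the 3 tandem glucanases, the level per length in snap33 at 12 d was 351.07 ± 7.15 CPM per kb for PR2, 4.10 ± 1.83 for BG3 and 0.21 ± 0.23 for BG1 (SD, n = 3).

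PR5, the thaumatin-like member of the salicylic acid markers, was not called at 5 d. Its counts were 42, 38 and 27 in wild type, against 35, 32 and 12 in snap33. The groups overlapped, with a log2 fold change of -0.32 ± 0.28 (SE, edgeR adjusted p = 0.524). Without snap33 replicate 3 the log2 fold change was 0.02, so its direction rests on that library. At 12 d the counts were 41, 68 and 37 in wild type, against 862, 831 and 704 in snap33, with no overlap. Mean levels were 8.94 ± 2.08 CPM and 149.06 ± 11.40 CPM (SD, n = 3), a rise of 4.04 ± 0.20 on the log2 scale (SE), or 16.5-fold (edgeR adjusted p = 3.97e-12).

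Among the 3 members called for a difference between the ages in the effect of snap33, PR5 had the largest. The effect at 12 d exceeded that at 5 d by 4.36 ± 0.35 on the log2 scale (SE, edgeR adjusted p = 6.49e-08). In wild type the level did not differ detectably between 5 d and 12 d (0.25 ± 0.26 on the log2 scale, edgeR adjusted p = 0.474), whereas in snap33 it rose 24.3-fold (4.6 ± 0.22, edgeR adjusted p = 1.69e-12). Close relatives on chromosome 1 share up to 80.0% of the PR5 coding sequence (AT1G75050), with at most 30 bases in a row.

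PR3, the basic chitinase known as an ethylene and jasmonate marker, was counted in every library and had the smallest fold of the 6 called at 12 d. At 5 d its counts were 244, 164 and 210 in wild type, against 127, 149 and 131 in snap33. Wild-type replicate 2 lay between the snap33 values once scaled to CPM, and the log2 fold change of -0.49 ± 0.17 (SE) was not called (edgeR adjusted p = 0.0625). That call depended on the processing: PR3 was called lower at 5 d with upper-quartile scaling (-0.53, edgeR adjusted p = 0.0376), with no filter on low counts (-0.48, 0.0296), without wild-type replicate 2 of 5 d (-0.68, 0.00947) and without wild-type replicate 3 of 12 d (-0.49, 0.0402). At 12 d the counts were 615, 699 and 725 in wild type, against 1059, 1228 and 945 in snap33, again without overlap, with means of 127.57 ± 13.85 CPM and 200.94 ± 21.43 CPM (SD, n = 3). The rise was 0.66 ± 0.15 on the log2 scale (SE), or 1.58-fold (edgeR adjusted p = 0.00125).

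The effect of snap33 on PR3 differed between the ages by 1.15 ± 0.22 on the log2 scale (SE, edgeR adjusted p = 0.000947). With age PR3 rose 2.87-fold in wild type (1.52 ± 0.16, edgeR adjusted p = 4.44e-07) and 6.36-fold in snap33 (2.67 ± 0.16, edgeR adjusted p = 7.34e-11). The antisense RNA over PR3 had 1 count and 2 counts over wild type and snap33 at 5 d, and 11 and 56 at 12 d. Whether counting used strand is not given in the sources used here, and without it the reads of both genes cannot be told apart.

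PR4, the hevein-like member, was higher in snap33 at both ages. At 5 d its counts were 504, 540 and 585 in wild type, against 978, 1142 and 706 in snap33. All snap33 libraries stood above wild type, with means of 116.33 ± 12.81 CPM and 219.15 ± 52.95 CPM (SD, n = 3), a rise of 0.91 ± 0.14 on the log2 scale (SE), or 1.88-fold (edgeR adjusted p = 0.000228). At 12 d the counts were 1233, 1236 and 1061 in wild type, against 4647, 4980 and 4492 in snap33. The rise there was 1.99 ± 0.14, or 3.98-fold (edgeR adjusted p = 7.17e-10), and it exceeded that at 5 d by 1.08 ± 0.20 (edgeR adjusted p = 0.000498). With age PR4 rose 1.90-fold in wild type (0.92 ± 0.14, edgeR adjusted p = 3.46e-05) and 4.01-fold in snap33 (2.0 ± 0.14, edgeR adjusted p = 5.71e-10).

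**Figure D2:**
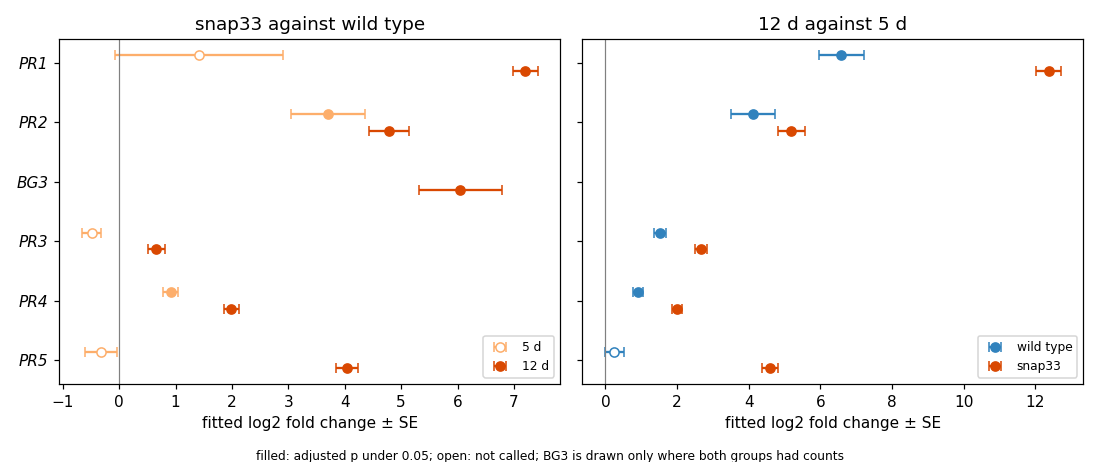
Fitted log2 fold changes with their SE, at left for snap33 against wild type at 5 d and 12 d and at right for 12 d against 5 d in each genotype. Filled points were called at an adjusted p under 0.05. At left PR2 and PR4 are the called genes at 5 d, and all 6 are called at 12 d. At right PR5 in wild type is the open point beside 0. PR1 passed the filter on low counts only through 12 d libraries and BG3 only through snap33 of 12 d. The filled points of PR1 at right and of BG3 at left therefore had to differ.

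Over the family, 3 of the 6 tested members (PR3, PR4 and PR5) were called for a difference between the effects at 12 d and 5 d, all larger at 12 d, where 23.7% of all genes were called and 11.0% in that direction. With age 4 members were called higher in wild type (PR1, PR2, PR3 and PR4), with PR1 tested only through its 12 d libraries, beside 40.7% of all genes called and 21.5% called higher. In snap33 6 members were called higher with age, beside 54.8% of genes called and 28.2% called higher, but PR1 and BG3 are among the 6 and had to differ, which leaves PR2, PR3, PR4 and PR5. These comparisons share libraries, so their counts are not independent of each other.

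The order of the members by level per length changed with genotype and age. In wild type at 5 d PR4 was highest with 102.58 ± 11.30 CPM per kb of exon (SD, n = 3), followed by PR3 with 32.41 ± 8.27 and PR5 with 6.96 ± 1.53. PR2 followed with 0.73 ± 0.16, and PR1, BG1 and BG3 overlapped near 0. In snap33 at 5 d PR4 (193.25 ± 46.69) and PR3 (23.04 ± 2.85) again led, and PR2 (9.51 ± 7.05) and PR5 (5.55 ± 2.55) overlapped below them. Wild type at 12 d kept PR4 (194.73 ± 21.06) and PR3 (92.91 ± 10.08) on top, and the libraries of PR2, PR1 and PR5 overlapped with means of 12.58, 10.06 and 8.17 CPM per kb.

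In snap33 at 12 d PR1 led with 1510.25 ± 118.99 CPM per kb (SD, n = 3), a level that no library of another member reached. PR4 (775.24 ± 25.56) and PR2 (351.07 ± 7.15) followed, each apart from its neighbours. PR3 (146.35 ± 15.61) and PR5 (136.13 ± 10.41) overlapped, and BG3 and BG1 stood far below. PR1 thus moved from below PR3 and PR4 in wild type of 12 d to above both.

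The 7 genes together took 1.65 ± 0.217 of every 10000 gene counts in wild type at 5 d and 2.58 ± 0.641 in snap33. At 12 d they took 4.00 ± 0.110 in wild type and 32.3 ± 1.67 in snap33 (SD, n = 3). PR1 supplied 2.43% of the members' reads in wild type and 43.7% in snap33 at 12 d, and PR2 4.99% and 16.6%. PR4 supplied 57.2% and 28.2% although its own level rose.

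**Figure D3:**
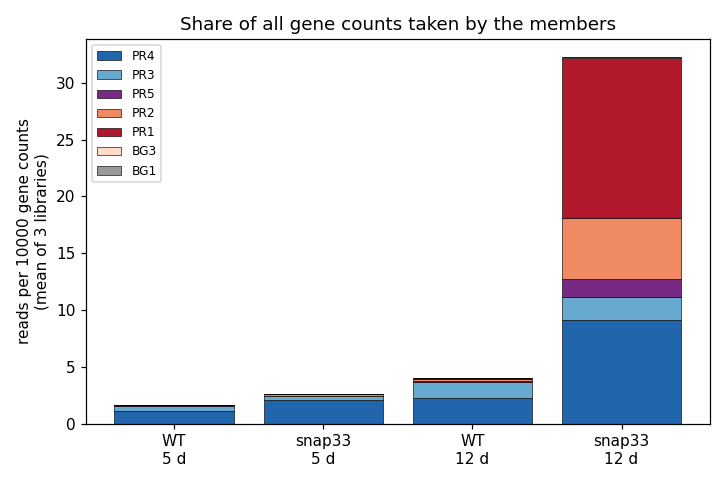
Reads of each gene per 10000 gene counts, stacked, as the mean of the 3 libraries of each group. The stack reaches 32.3 in snap33 at 12 d and at most 4.00 in the other groups, and PR1 is the widest band in snap33 at 12 d.

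The other genes of the same protein families did not all move with the members. The lists were read as counts and medians, with no test of a list, beside the shares of all genes called higher and lower: 8.22% and 4.77% at 5 d, and 21.1% and 20.5% at 12 d. Of 14 tested CAP genes other than PR1, 1 was called higher and 9 lower at 12 d (median log2 fold change -0.86), and 1 higher and 3 lower at 5 d (median -0.22). Among the 9, AT4G25790 and AT4G33730, named after their values were seen, had 56 and 45 counts over wild type of 12 d. Every other group had at most 21 for AT4G25790 and 23 for AT4G33730. Both may thus have passed the filter on low counts mainly through wild type of 12 d. Their calls, which also enter the median, are weak support for a difference. The gene called higher at 12 d was AT4G33720, with 168 counts over wild type and 1889 over snap33 (11.3-fold, edgeR adjusted p = 1.02e-09). AT2G19970 fell by 1.87 on the log2 scale at 12 d (edgeR adjusted p = 4.43e-07) and AT4G25780 by 1.62 (edgeR adjusted p = 2.52e-06). AT4G25780 was also the gene called higher at 5 d (1.52-fold), and AT2G19970, AT5G57625 and AT1G50060, the last named after its values were seen, were those called lower there. PRB1, the basic relative beside PR1 and named for that position after its values were seen, had 43 and 58 counts over wild type and snap33 at 12 d and was not called (edgeR adjusted p = 0.413).

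Among 8 tested glucanases of family GH17 other than PR2, BG3 and BG1, 2 were called higher and 4 lower at 12 d (median -0.38). At 5 d AT5G42720 was called higher by 1.32-fold and none was called lower (median -0.09). AT4G16260 rose 3.83-fold at 12 d, from 62.14 ± 5.42 to 238.47 ± 14.44 CPM (SD, n = 3, edgeR adjusted p = 4.05e-11), and AT2G27500 rose 2.04-fold. AT1G11820 and AT5G56590 fell by 1.01 and 0.76 on the log2 scale, and AT5G42720 and AT2G05790, named after their values were seen, fell by 0.40 and 0.39. AT1G11820 overlaps antisense genes, so its reads are uncertain.

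Chitinases other than PR3 gave 8 called higher and 3 called lower of 15 tested at 12 d (median 0.54), and 3 called higher at 5 d (median 0.03). CHI, a class IV chitinase gene, rose 9.17-fold at 12 d, from 24.19 ± 7.95 to 222.30 ± 12.21 CPM (SD, n = 3, edgeR adjusted p = 6.88e-11). AT3G47540 rose 8.43-fold (edgeR adjusted p = 3.07e-13), more than PR3 itself, though 70 of its bases overlap an antisense RNA. At 5 d AT2G43620 and AT2G43590 rose 2.75-fold and 2.30-fold, and AT4G19820 rose 1.73-fold. POM1, a chitinase-like gene needed for normal cellulose deposition, and AT4G19820 were called lower at 12 d, by 0.45 and 1.04 on the log2 scale, as was CTL2, a relative of POM1, by 0.58 (named after its values were seen).

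Of 18 tested thaumatin-like genes other than PR5, 4 were called higher and 4 lower at 12 d (median 0.10), and 2 higher and 1 lower at 5 d (median 0.10), shares near those of all genes. OSM34, an osmotin-like gene, rose 2.72-fold at 12 d and 1.70-fold at 5 d. AT4G18250, a receptor-like kinase with a thaumatin-like part, went from 9 counts over wild type to 752 over snap33 at 12 d (80.1-fold). It passed the filter on low counts only through those snap33 libraries. Its call, among the 4 higher, is therefore no support for the difference. AT1G77700 rose 2.74-fold at 5 d, and AT1G73620 fell by 1.2 at 5 d and by 0.90 at 12 d on the log2 scale. AT4G38660 fell by 0.65 at 12 d. The remaining genes called at 12 d were AT1G77700 and PR5K (higher) and ATLP-1 and AT4G38670 (lower), named after their values were seen.

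**Figure D4:**
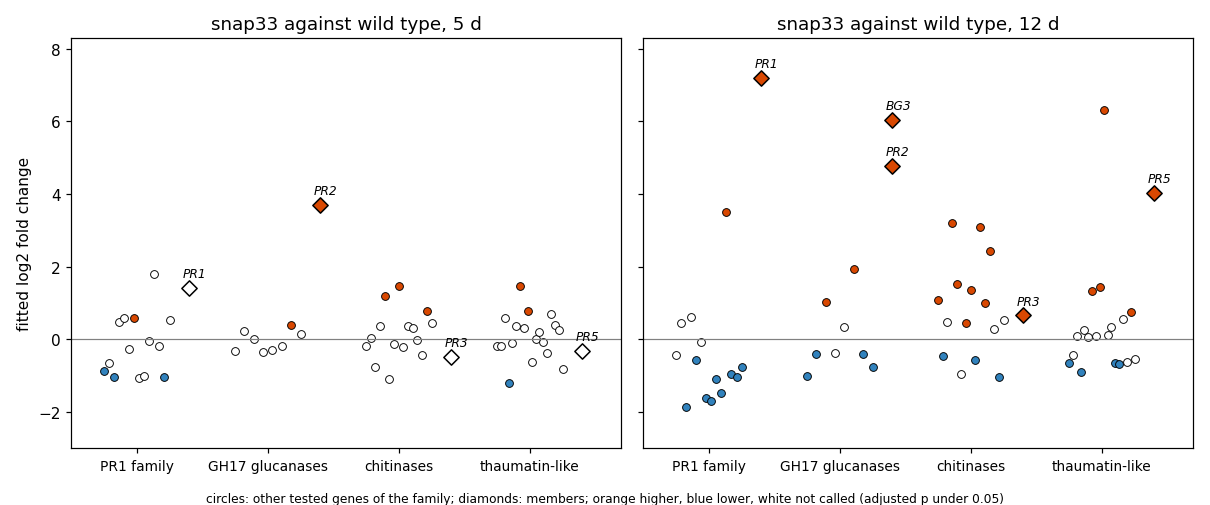
Fitted log2 fold change of snap33 against wild type for the tested genes of 4 protein families at 5 d (left) and 12 d (right). Circles are other genes of the family and diamonds the members; orange was called higher, blue lower, and white was not called. At 12 d PR1 and PR2 lie above every other tested gene of their families, BG3 apart, whereas several chitinases lie above PR3 and AT4G18250 lies above PR5. BG3 and AT4G18250 passed the filter on low counts only through snap33 of 12 d.

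Other classes of pathogenesis-related proteins, which include defensins, thionins, proteinase inhibitors and lipid transfer proteins, gave 7 called higher and 0 lower of 13 tested at 5 d (median 0.51) and 8 higher and 1 lower at 12 d (median 1.39). PDF1.2a, a defensin used as a jasmonate and ethylene marker, had 7 counts over wild type and 1589 over snap33 at 5 d (236-fold, edgeR adjusted p = 9.57e-10), and 785 and 11167 at 12 d (14.3-fold, edgeR adjusted p = 4e-10). PDF1.3 rose 196-fold at 5 d (edgeR adjusted p = 2.98e-10). The PDF1 genes are near-identical, so the division of reads among them is uncertain. The thionin gene THI2.1 had 7 counts over wild type and 281 over snap33 at 12 d (38-fold), and its relative THI2.2 fell by 1.49 on the log2 scale. THI2.1 passed the filter on low counts only through snap33 libraries. Its calls at 5 d and 12 d are therefore no support for a difference. LCR67, among the 8 higher at 12 d and named after its values were seen, had 64 counts over snap33 there. Each other group had 23 to 25, so LCR67 may have passed the filter mainly through snap33 of 12 d. Its log2 fold change of 1.39 is also the median at 12 d.

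Of 15 tested regulators of the salicylic acid route, 1 was called higher and 1 lower at 5 d (median 0.06), a share near the 13.0% of all genes called. At 12 d 12 were called higher and 0 lower (median 1.05), beside 21.1% and 20.5% of all genes. The 12 include WRKY54, NIMIN1 and WRKY38, which passed the filter on low counts only through snap33 of 12 d and had to differ there. NPR4, also among the 12, had only 12, 9 and 19 counts over the other groups, against 88 over snap33 of 12 d. With so few counts elsewhere it in effect passed the filter through snap33 of 12 d as well. Its call there is therefore no support for the difference. NIMIN1, WRKY38 and NPR4 were named after their values were seen. WRKY70, a factor that promotes salicylic acid responses and restrains jasmonate responses, rose from 9.85 ± 1.15 to 17.78 ± 4.69 CPM at 5 d (1.81-fold, edgeR adjusted p = 0.00318) and from 21.54 ± 1.63 to 476.49 ± 3.92 CPM at 12 d (22.1-fold, edgeR adjusted p = 2.7e-14). WRKY54, its close relative, had 16 counts over wild type and 3 over snap33 at 5 d and was called lower there (edgeR adjusted p = 0.0312). At 12 d WRKY54 had 6 counts over wild type and 466 over snap33, a rise of 72.6-fold. As it entered the test only through these snap33 libraries, its call at 12 d is no support for the difference. Among genes named after their values were seen, NPR1 rose 2.07-fold at 12 d. NIMIN1, whose product binds NPR1, rose 83.9-fold from 5 counts to 454, with the same limit as WRKY54. The 3 regulators not called at 12 d were NIMIN-3, TGA4 and AHBP-1B, a TGA factor gene.

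The ethylene and jasmonate regulators gave 5 called higher of 11 tested at 5 d (median 0.48), and 7 higher and 1 lower at 12 d (median 0.74). ERF2 rose 8.80-fold at 5 d, from 3.41 ± 0.46 to 30.35 ± 15.89 CPM (SD, n = 3, edgeR adjusted p = 2.47e-06). MYC2, the main jasmonate factor, rose 3.15-fold (edgeR adjusted p = 3.53e-06), though an antisense gene overlaps it over 3241 bases. The other genes called at 5 d were ERF4, ERF13 and ERF-1 (AT4G17500), named after their values were seen. At 12 d ERF1 (AT3G23240) rose from 14 counts over wild type to 325 over snap33 (22.6-fold). ERF1 passed the filter on low counts only through those snap33 libraries. Its call, among the 7 higher, is therefore no support for the difference. ERF-1 rose 6.76-fold at 12 d, and EIL1 fell by 0.48 on the log2 scale.

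The genes whose profiles over the 12 libraries were most like those of the members were ranked by Pearson's r of log2 CPM. The 12 points fall into 4 groups and share libraries and depth, so r mainly follows the group means, and 61 (PR3) to 484 (PR1) genes had an r over 0.95 with a member. For PR1 the nearest were AT2G15220 (r = 0.995), FMO1 (0.994) and WAKL10 (0.991). FMO1, the enzyme that makes N-hydroxypipecolic acid, had a mean of 2.62 CPM in wild type and 169.52 CPM in snap33 at 12 d. For PR2 they were AIG1 (0.990), AT1G35710 (0.987) and TCH3 (0.985), and AIG1, a gene induced by bacterial effector recognition, already differed at 5 d with 0.42 CPM in wild type and 5.47 CPM in snap33.

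BG3 was nearest to PP2-A7 (r = 0.994), AT1G11925 (0.989) and AT2G15780 (0.989), genes that were also at or near 0 outside snap33 of 12 d. PR3 was nearest to AT4G39955 (0.994), THAS1 (0.989) and SUS1 (0.987). SUS1, a sucrose synthase gene, shared the shape of PR3, with means of 20.76, 17.34, 64.75 and 99.60 CPM in wild type and snap33 of 5 d and wild type and snap33 of 12 d. PR4 was nearest to CML38 (0.993), AT4G34150 (0.991) and EP1 (AT4G23170, 0.991). CML38, a calmodulin-like gene, had 1.65, 6.28, 6.00 and 198.65 CPM in the same order. PR5 was nearest to AT1G25682 (0.993), AT1G65250 (0.986) and AT4G02550 (0.985), which rose far less than PR5, as with AT1G25682 at 22.03 CPM in wild type and 34.38 CPM in snap33 at 12 d. TCH3 and AT4G34150 overlap other annotated genes.

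Between the members r ranged from 0.74 (BG3 with PR3) to 0.98 (PR2 with PR4) over the same 12 libraries. PR2 with PR4 therefore had the most similar profiles, and each of the 5 values for PR3 with another member was at most 0.90. PR2 with PR5 gave 0.89, and PR3 with PR4 gave 0.75.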

How the data were processed

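Polyadenylated RNA of whole seedlings was sequenced as stranded single-read libraries per the labels' protocols. A 3' format is named for snap33 12 d replicate 1 alone. Reads were aligned with STAR (version not given) to TAIR10, per the submitters' processing notes. The deposited values are raw counts per gene, whose closing lines are those of htseq-count; for annotation, strand setting and filters the sources used here give nothing. Unassigned reads, 9.26% to 12.15% of each library, were left out.

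Groups follow the sample titles. The test was that of edgeR 4.0.16, run in R 4.3.3 (quasi-likelihood test, TMM, the default low-count filter with a minimum count of 10, Benjamini-Hochberg over 18830 genes), with all 12 libraries in 1 fit and a mean per group. CPM are counts scaled by TMM, given as mean ± SD over 3 libraries, and CPM per kb divide by exonic length in TAIR10.1. Each SE was derived from the log2 fold change and its F statistic, and for genes near 0 counts it is no measure of precision. Ratios of counts carry exact 95% intervals, and these and the floor of 3 counts cover counting error only. The script was tested on simulated counts for the 12 d comparison over 18830 genes, where 100% of genes raised by 2 on the log2 scale were recovered and 74% of those raised by 1, against 94% and 62% of those lowered by as much.

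Members and lists were chosen with earlier results of these data known. Named outside the members were, per list, direction and age, the 2 called genes with the smallest p, and for each tested member the 3 genes with the highest r (prior count 2). Of these 49 genes 6 overlap another annotated gene. Same-numbered libraries of an age share a harvest day per the labels, which pairs them; the correlation of their deviations from the group means was -0.25 to -0.06 at 5 d and -0.08 to 0 at 12 d. Nothing in the labels says that replicates came from separate plates, and p-values cover only the spread among these libraries, which may be technical. Pairs of them differed beyond sampling noise (chi-square per degree of freedom 1.59 to 9.98). Alternatives were other scalings, no filter, DESeq2 1.42.0, fits of the compared groups alone, a block for harvest day or replicate, and each library left out. The upstream sequence of PR1 is not reported here.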

Additional observations from a re-analysis of the deposited data

Results flagged for a closer look

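For 3 genes the effect of snap33 differed between the ages by the test of that difference in edgeR. The effect at 12 d exceeded that at 5 d on the log2 scale by 4.36 for PR5 (edgeR adjusted p = 6.49e-08), by 1.15 for PR3 (edgeR adjusted p = 0.000947) and by 1.08 for PR4 (edgeR adjusted p = 0.000498). All 3 snap33 libraries of 12 d stood above wild type for each of these genes, whereas at 5 d PR3 and PR5 overlapped. The planting date of snap33 at 12 d and the genotype cannot be told apart in these differences.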

How the results depend on the processing

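Over 18 alternatives, 12 of them with a library left out, 525 of 531 values of the members kept their side of the threshold, 6 were called in addition, and no called value lost its call or changed sign. The values kept include calls of BG3, and of PR1 with age, that had to come because of the filter on low counts. Among values not called, PR5 at 5 d went from -0.32 to 0.02 without snap33 5 d replicate 3, and BG3 with age in wild type from 1.79 to 0 without wild-type 12 d replicate 1. The added calls were those of PR3 at 5 d given above, whose log2 fold change ranged from -0.68 to -0.32 with edgeR adjusted p from 0.00947 to 0.294, and those of PR1 and BG3 for the difference between the ages with DESeq2. DESeq2 called 5 members there in place of 3, with 5.63 for PR1 (DESeq2 adjusted p = 0.0013) and 6.32 for BG3. The cause was not tested. BG3 had 0 counts at 5 d and entered the test only through snap33 of 12 d, so its added call is no support. PR1 passed the filter only through 12 d libraries, and its part at 5 d rests on 3 counts against 1. With a library left out, 1468 to 3223 genes were called at 5 d, against 2445 with all libraries. The replicate block changed no call of a member: with the block 2 members were called at 5 d and 6 at 12 d, and PR2 rose by 3.62 and 4.88 on the log2 scale. Folds against few counts moved most: without wild-type 5 d replicate 3 the log2 fold change of PR1 with age in wild type was 8.52 (6.58 with all libraries), without snap33 5 d replicate 1 that of PR1 with age in snap33 was 13.2 (12.37), and without wild-type 12 d replicate 1 that of BG3 at 12 d was 7.84 (6.05). Without snap33 12 d replicate 1, whose protocol names a 3' format, the log2 fold changes at 12 d were 7.14 for PR1, 4.79 for PR2, 5.95 for BG3, 0.68 for PR3, 2.01 for PR4 and 4.00 for PR5. All were called, but the call of BG3 had to come, as it entered the test only through snap33 of 12 d. Upper-quartile scaling moved the median of all genes at 12 d from -0.037 to -0.156. With 0 to 4 counts over a group, differences of BG1, of BG3 at 5 d and of PR1 at 5 d were not detectable at this depth.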
